A study of Mus musculus with 16 samples.

Results

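The urea cycle and the enzymes of amino acid breakdown were followed in liver and white adipose tissue of diet-induced obese (DIO) mice given halofuginone or vehicle. The set is a list of 39 mouse genes, chosen by symbol: 6 of the urea cycle, 6 for glutamine, glutamate and the common transaminases, 4 for tyrosine, 3 for tryptophan and kynurenine, 4 for serine and glycine, 3 for histidine, 5 for the branched-chain amino acids, 6 for methionine and cysteine, and 2 for lysine. They were chosen with earlier results of these data known. All 39 were found among the 22322 genes of each tissue's table. Halofuginone, an inhibitor of prolyl-tRNA synthetase, was given intraperitoneally at 100 μg/kg every 2 days, and tissue was taken after 8 weeks. The groups were 5 vehicle and 5 halofuginone livers, and 3 vehicle and 3 halofuginone samples of white fat. The labels write HFD for vehicle and H100 for the drug, and every group, controls included, was of obese mice, so no lean animals enter these comparisons. Strain, sex, age, the fat depot and the makeup of the vehicle are not given in the labels, nor is it stated that each library is a separate animal or whether liver and fat of the same number share 1. The p-values therefore measure the spread between these libraries.

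Amino acids that are not used for protein lose their nitrogen by transamination, mostly onto glutamate, and glutamate dehydrogenase frees it as ammonia in the mitochondrion. The urea cycle of the hepatocyte turns that ammonia and the nitrogen of aspartate into urea: Cps1 and Otc act in the mitochondrion, Ass1, Asl and Arg1 in the cytosol, and Nags makes the activator that Cps1 needs. The carbon skeletons are broken down along separate routes into glucose or ketone precursors, most of them nearly complete only in liver. The branched-chain amino acids are an exception, since their first step, transamination, runs mainly outside the liver, in muscle and fat among other tissues. The urea cycle is richest in periportal hepatocytes, and glutamine synthetase is restricted to those around the central vein.

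Libraries held 20309956 to 31980683 counts in liver and 17070614 to 21387799 in fat. Expression is given as CPM, the count scaled to library size with TMM factors. A library with 0 counts could hold up to 3 by counting error alone, which is taken as the floor. Halofuginone liver 1 stood apart from the other treated livers. On the first principal component of log2 CPM over the 38 set members tested in liver, which carried 65.6% of their variance, it lay at −0.61, between the vehicle livers (−2.94 to −1.37) and halofuginone livers 2 to 5 (0.34 to 4.46). On the first component over all genes, which carried 60.7% of the variance, halofuginone liver 1 lay at −20.7, near the vehicle livers (−29.6 to −22.7). Halofuginone livers 2 to 5 lay at 24.9 to 49.2 on that component. Results in liver are therefore given with and without halofuginone liver 1. Liver markers were abundant in every liver library, and the summed level of 8 hepatocyte markers was 124996 to 144899 CPM in vehicle and 52116 to 118142 CPM under halofuginone, with halofuginone liver 1 at the upper end. Most of that sum was Alb, which went from a mean of 94154 to 51781 CPM (log2 fold change −0.86, adjusted p 0.0742). Of these 8 markers 2 were lower under halofuginone (Apoa2 and Ttr) and 0 were higher, and 4 were lower and 2 higher without halofuginone liver 1. The log2 fold changes of Ambp and Fgb were positive with all libraries, at 0.56 (adjusted p 0.0794) and 0.57 (adjusted p 0.226). None of the 8 was at the floor. Pericentral hepatocyte markers summed to 14864 to 18469 CPM in vehicle and 3740.4 to 15378 CPM under halofuginone. Most of the vehicle sum was Cyp2e1, which went from a mean of 12762 to 6440 CPM (log2 fold change −0.99, adjusted p 0.0915). Of the pericentral markers 6 of 11 were lower (8 without halofuginone liver 1). With all libraries these were Slc1a2, Rgn, Lect2, Rhbg, and Glul and Oat, which are also enzymes of this field. Cyp2e1, Cyp1a2 (−0.87), Lgr5 (0.13), Axin2 (0.38) and Tbx3 (−0.06) were not called. Periportal markers summed to 4583 to 5213 CPM in vehicle and 2618 to 6100.0 CPM under halofuginone, and 1 of 7 was lower (3 without halofuginone liver 1). In the pericentral and the periportal sum the highest treated value, 15378 and 6100.0 CPM, was that of halofuginone liver 1. Beside these marker counts, 10.5% of all genes tested were lower, and 21.6% without halofuginone liver 1. Whether the mix of hepatocyte zones took part in the results below was not tested, and in bulk tissue fewer cells of a type and less RNA per cell cannot be told apart.

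In liver the set was mixed in direction, and more of its genes fell than rose. Tat, the tyrosine aminotransferase, rose 3.17-fold, the largest rise in the set, and Bhmt, which remethylates homocysteine with betaine, fell 3.55-fold, the largest fall. Otc of the urea cycle, Glud1, and enzymes for histidine (Uroc1), tyrosine (Hgd), kynurenine (Kmo, Haao), lysine (Aass, Gcdh) and branched-chain keto acids (Bckdhb) also fell. Amdhd1 of histidine breakdown, Bcat2 and Bckdk rose. By edgeR's quasi-likelihood test with adjustment over all genes, 14 of the 38 members that passed the filter on low counts were called at an adjusted p under 0.05 (36.8%), beside 23.2% of all 12311 genes tested. Of the 14, 4 were higher (10.5% of the 38, with 12.7% of all genes higher) and 10 were lower (26.3%, with 10.5% of all genes lower). Bcat1 was the member left out, with 0 counts in all 10 livers, which allows up to 0.0983 to 0.150 CPM depending on the library.

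**Figure D1:**
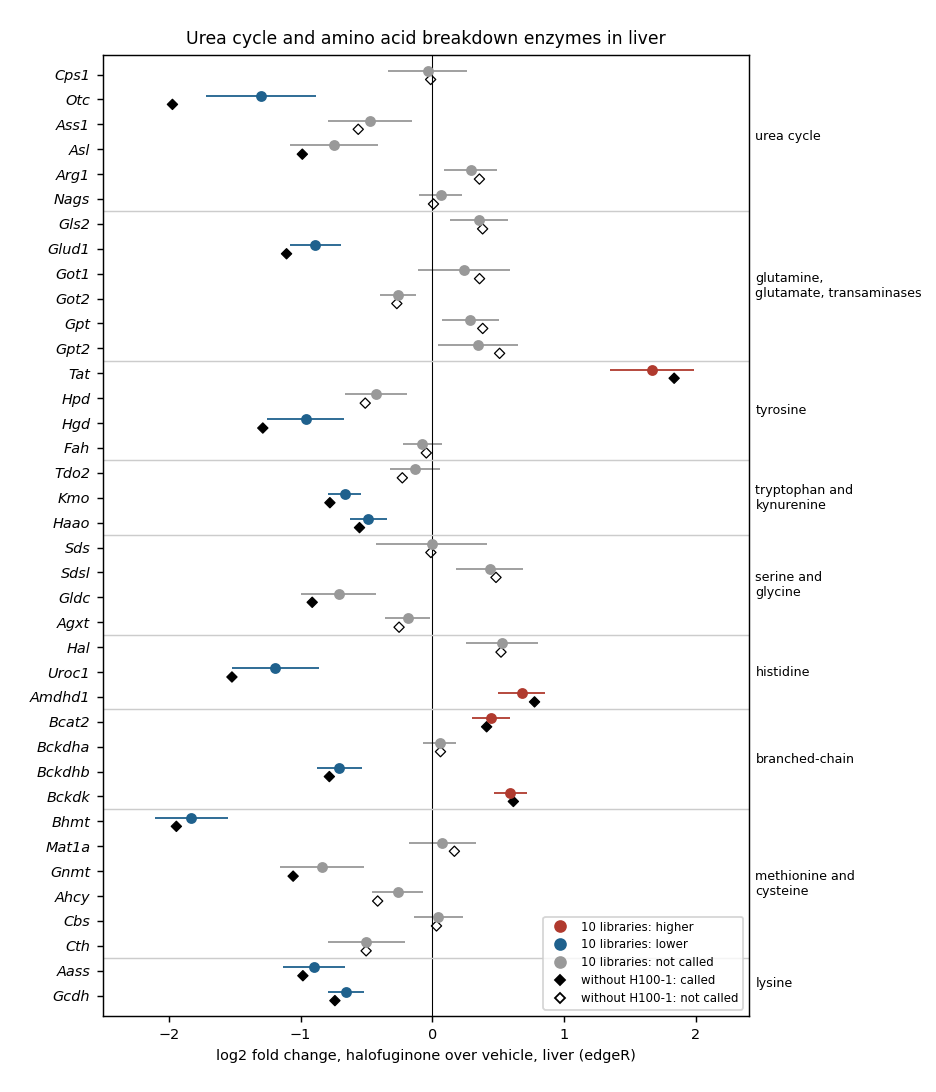
Log2 fold change (halofuginone over vehicle, liver) of the 38 members tested, grouped by role. Circles with bars give the value and its SE over 10 libraries, coloured when called, and diamonds give the value without halofuginone liver 1 (H100-1), filled when called. Tat stands alone on the right at 1.66, and Bhmt lies farthest left at −1.83 over 10 libraries, with Otc at −1.97 when the first treated liver is left out.

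Without halofuginone liver 1 the count was 17 of 38 (44.7%), beside 42.8% of all 12422 genes then tested. Of the 17, 4 were higher (10.5%, with 21.2% of all genes) and 13 were lower (34.2%, with 21.6% of all genes). These were the same 14 and Asl, Gldc and Gnmt, all lower, and 13 of the 14 had a larger absolute fold change than with all libraries. That library was picked out by its values in these same genes, near vehicle. Larger fold changes and smaller adjusted p without it are therefore no separate support for any member. Other single libraries moved the count as well. It was 8, 9 and 8 without vehicle liver 2, 4 and 5, in fits that called 11.7%, 14.3% and 13.7% of all genes. Without halofuginone liver 2, 3 and 5 it was 9, 7 and 8, in fits that called 15.3%, 10.3% and 11.3% of all genes. The calls of Glud1, Tat, Bckdhb, Bckdk, Bhmt and Gcdh held in all 18 alternatives tried. In 1 fit of all groups the count was 9 of 39 (14.8% of all genes), without Otc, Kmo, Haao, Amdhd1 and Bcat2. Haao was also lost with library size alone and with limma on FPKM, and Bcat2 with no filter on low counts. The groups did not overlap in 7 of the 38 members (18.4%, with 11.7% of all genes). Bckdk (5.13% of all genes lay above) was above, and Glud1, Kmo, Uroc1, Bhmt, Aass and Gcdh (6.55% of all genes lay below) were below every vehicle liver in all 5 halofuginone livers. Without halofuginone liver 1 this held for 11 (28.9%, with 34.9% of all genes), the 4 added being Tat and Amdhd1 above (18.8% of all genes) and Otc and Hgd below (16.1%). The median log2 fold change of the members was −0.16 (15 positive, 23 negative), with 0.02 over all genes, and it was −0.24 and −0.02 without that library. Scaling by library size alone raised the median of all genes to 0.17 and split the members 19 to 19, so directions here are relative to TMM scaling.

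The sequences in front of 4 genes are shown because they carry the clearest contrasts: the largest rise and fall in the set, and a kinase and a subunit of its target that moved in opposite directions. Each is the 250 bases before the annotated start, 5′ to 3′ on the gene's strand, from RefSeq on build GRCm38.p6. Tat lies at chr8:109990186-109990435 (plus strand), Bhmt at chr13:93637759-93638008 (minus strand), Bckdk at chr7:127903823-127904072 (plus strand) and Bckdhb at chr9:83924887-83925136 (plus strand, the upstream of 2 starts listed). For each of these 4 genes a GENCODE M21 transcript held the bases just after the start near its head, or began in the window or just after it. This was on the strand given, and for Bhmt a transcript begins inside the window. Capitals mark AGGTCA on either strand, the hexamer that many nuclear receptors recognise.
Tat: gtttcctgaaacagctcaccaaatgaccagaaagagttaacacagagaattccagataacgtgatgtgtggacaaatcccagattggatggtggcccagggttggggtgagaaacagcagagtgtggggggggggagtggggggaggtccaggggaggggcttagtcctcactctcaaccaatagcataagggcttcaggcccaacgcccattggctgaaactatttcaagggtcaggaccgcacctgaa
Bhmt: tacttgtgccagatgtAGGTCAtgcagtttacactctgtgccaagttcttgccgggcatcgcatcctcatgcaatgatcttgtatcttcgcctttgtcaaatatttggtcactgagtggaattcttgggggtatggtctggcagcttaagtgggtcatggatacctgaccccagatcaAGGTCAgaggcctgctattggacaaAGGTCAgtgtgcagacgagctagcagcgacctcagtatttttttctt
Bckdk: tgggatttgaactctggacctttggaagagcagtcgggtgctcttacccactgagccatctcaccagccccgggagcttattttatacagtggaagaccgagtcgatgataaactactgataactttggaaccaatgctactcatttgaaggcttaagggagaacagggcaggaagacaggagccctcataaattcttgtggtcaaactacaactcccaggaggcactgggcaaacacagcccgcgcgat
Bckdhb: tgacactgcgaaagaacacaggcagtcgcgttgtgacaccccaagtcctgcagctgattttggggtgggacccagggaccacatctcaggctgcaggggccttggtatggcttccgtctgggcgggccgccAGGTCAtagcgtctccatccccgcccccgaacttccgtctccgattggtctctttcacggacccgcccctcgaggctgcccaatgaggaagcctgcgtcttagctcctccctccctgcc
The Bhmt window holds the hexamer 3 times, that of Bckdhb 1 time, and those of Tat and Bckdk not at all. RefSeq windows were found for 30 of the 39 members, and a gene was counted when the window of any of its listed starts held the motif. Besides Bhmt, a GENCODE M21 transcript began inside the window for Ass1, Bcat1, Bckdha, Cbs, Got2, Haao and Kmo. AGGTCA stood in 6 of the 10 members that fell (Aass, Bckdhb, Bhmt, Haao, Hgd and Uroc1), in 0 of the 4 that rose and in 7 of the 16 others, beside 15.8% of all 27025 genes with a window. The sequence TGATGNAA, which is bound by the amino acid response factor ATF4 with its partners, was in none of the 14 called members and in 1 of the others (Got1), beside 3.91% of all genes. These are matches of letters, read on both strands, and the hexamer was chosen after the windows had been seen.

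Among the 6 urea cycle members, Otc alone was called with all libraries. Otc, which joins carbamoyl phosphate to ornithine, was nearly level across vehicle livers. Otc (ENSMUSG00000031173) stood at 321, 339, 312, 332 and 330.3 CPM in vehicle livers 1 to 5 and at 325, 67.3, 56.1, 129 and 85.2 CPM in halofuginone livers 1 to 5. Halofuginone liver 1 lay inside the vehicle range and the other 4 treated livers lay far below it. Mean Otc went from 327 ± 10.7 to 133 ± 111 CPM (SD over 5 livers each), a 2.47-fold difference. Otc had a log2 fold change of −1.30 (SE 0.41, adjusted p 0.0429), and without halofuginone liver 1 it was −1.97 (SE 0.21, adjusted p 7.12e-05). The call was lost when any other single library was left out (adjusted p 0.0711 to 0.0987). Asl, which releases arginine from argininosuccinate, had 232 to 479 CPM in vehicle and 103 to 322 CPM under halofuginone, and the ranges overlapped. Its log2 fold change was −0.75 (SE 0.33, adjusted p 0.117), and of the fits that left out 1 library it was called in that without halofuginone liver 1, at −0.99 (SE 0.32, adjusted p 0.0298). Cps1, the first enzyme, was not called and had 2506 to 4037 CPM in vehicle and 1410.3 to 4728 CPM under halofuginone, a log2 fold change of −0.04 (SE 0.30, adjusted p 0.941), with treated values on both sides of the vehicle range. Ass1 stood at −0.47 (SE 0.32, adjusted p 0.293) and Arg1, which splits off urea, at 0.29 (SE 0.20, adjusted p 0.308). Nags was at 0.06 (SE 0.16, adjusted p 0.805), and its exons overlap a gene on the opposite strand, so with the strand of the reads not given its counts are uncertain.

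A wider list of 69 other genes of these pathways, beyond the 39, was read beside them, and 32 of the 65 tested in liver were called (49.2%, with 23.2% of all genes). Of these, 29 were lower (44.6%, with 10.5% of all genes) and 3 were higher (4.62%, with 12.7%), and the median log2 fold change was −0.45. The wider list was chosen with earlier results of these data known, so its excess over all genes is no independent support. The count was 18 without halofuginone liver 3 or 5 (10.3% and 11.3% of all genes) and 19 without vehicle liver 1, 4 or 5 (15.3%, 14.3% and 13.7%). It was 20 without vehicle liver 2 (11.7%) and 47 without halofuginone liver 1 (42.8%). Around the urea cycle 2 of 5 tested were called, both lower. Oat, which turns ornithine toward glutamate, went from 1359.6 ± 181 to 471 ± 138 CPM (SD, n = 5 each), log2 fold change −1.53 (SE 0.20, adjusted p 0.00268). Ca5a, the mitochondrial carbonic anhydrase that supplies bicarbonate to Cps1, went from 41.2 ± 10.2 to 15.8 ± 11.6 CPM, log2 fold change −1.39 (SE 0.41, adjusted p 0.0343), and this call was lost without any 1 of 8 libraries (all but vehicle liver 3 and halofuginone liver 1), with adjusted p from 0.0540 to 0.0812.

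**Figure D2:**
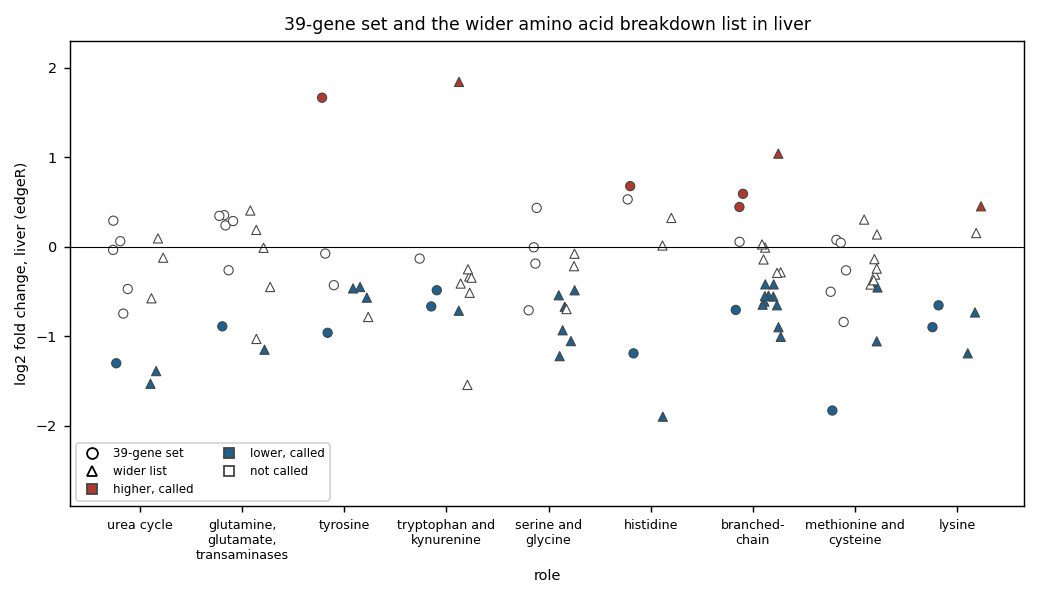
Log2 fold change in liver by role for the 39-gene set (circles) and the wider list (triangles), filled red when called higher, blue when called lower and open when not called. Most filled triangles are blue: 29 of 65 wider-list genes were lower, beside 10.5% of all genes, in a list chosen with earlier results of these data known. By role these were 10 of 16 branched-chain, 6 of 9 serine and glycine, 3 of 4 tyrosine and 3 of 10 methionine and cysteine genes. The rest were 2 of 5 urea cycle, 2 of 4 lysine, 1 of 3 histidine, 1 of 8 tryptophan and 1 of 6 glutamine and transaminase genes.

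Of the 6 members for glutamine, glutamate and transaminases, Glud1 was called and it fell. Glud1 (ENSMUSG00000021794) stood at 1179, 1065, 1070.2, 1049.9 and 1169.7 CPM in vehicle livers 1 to 5 and at 901, 476, 452, 667 and 492 CPM in halofuginone livers 1 to 5. All 5 treated livers, the first included, lay below every vehicle liver. Mean Glud1 went from 1107 ± 62.3 to 598 ± 189.9 CPM (SD over 5 livers each), a 1.85-fold difference. Glud1 had a log2 fold change of −0.89 (SE 0.19, adjusted p 0.0125), and without halofuginone liver 1 it was −1.11 (SE 0.14, adjusted p 0.000175). The transaminases that feed glutamate did not pass the test. Got2, the mitochondrial aspartate aminotransferase, stood at −0.26 (SE 0.14, adjusted p 0.174), with antisense overlap that leaves its counts uncertain. Gpt2, the mitochondrial alanine aminotransferase, stood at 0.34 (SE 0.30, adjusted p 0.427), with halofuginone livers 1 and 2 below all vehicle livers (300.3 and 377 CPM) and livers 3 to 5 above them. Gls2, the liver glutaminase, Got1 and Gpt had log2 fold changes of 0.35, 0.24 and 0.29, none called. Of 6 further genes of this role, 1 was called: Glul, the glutamine synthetase of pericentral hepatocytes, went from 1126 ± 82.1 to 507 ± 196 CPM (SD, n = 5 each), log2 fold change −1.15 (SE 0.22, adjusted p 0.00865).

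In tyrosine breakdown the first enzyme rose and a later one fell. Tat, which removes the amino group of tyrosine and is known to respond to glucocorticoids and fasting, rose most in the set. Tat (ENSMUSG00000001670) stood at 1018, 471, 473, 552 and 798 CPM in vehicle livers 1 to 5 and at 900.1, 1975, 2347, 2549 and 2722 CPM in halofuginone livers 1 to 5. Halofuginone liver 1 lay within the vehicle range, and the other 4 lay above its maximum of 1018 CPM. Mean Tat rose from 662 ± 239 to 2099 ± 725 CPM (SD over 5 livers each), a 3.17-fold difference. Tat had a log2 fold change of 1.66 (SE 0.32, adjusted p 0.00827), and without halofuginone liver 1 it was 1.83 (SE 0.24, adjusted p 0.000235). Hgd, the homogentisate dioxygenase further down the same route, moved the other way. Hgd (ENSMUSG00000022821) stood at 526, 459.9, 353, 491 and 448 CPM in vehicle livers 1 to 5 and at 413, 125, 151, 286 and 195 CPM in halofuginone livers 1 to 5. Halofuginone livers 2 to 5 lay below all vehicle livers, whereas the first was inside their range. Mean Hgd went from 456 ± 64.7 to 234 ± 117 CPM (SD over 5 livers each), a 1.95-fold difference. Hgd had a log2 fold change of −0.96 (SE 0.29, adjusted p 0.0358), and without halofuginone liver 1 it was −1.29 (SE 0.23, adjusted p 0.00123). This call was lost without any 1 of 8 libraries (all but vehicle liver 3 and halofuginone liver 1), with adjusted p from 0.0535 to 0.0877. Hpd, which makes homogentisate, stood at −0.43 (SE 0.24, adjusted p 0.200) and Fah, the last enzyme, at −0.08 (SE 0.15, adjusted p 0.729), and neither was called. In the wider list 3 of 4 were lower (Gstz1, Pcbd1 and Qdpr), and Gstz1 acts between Hgd and Fah.

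**Figure D3:**
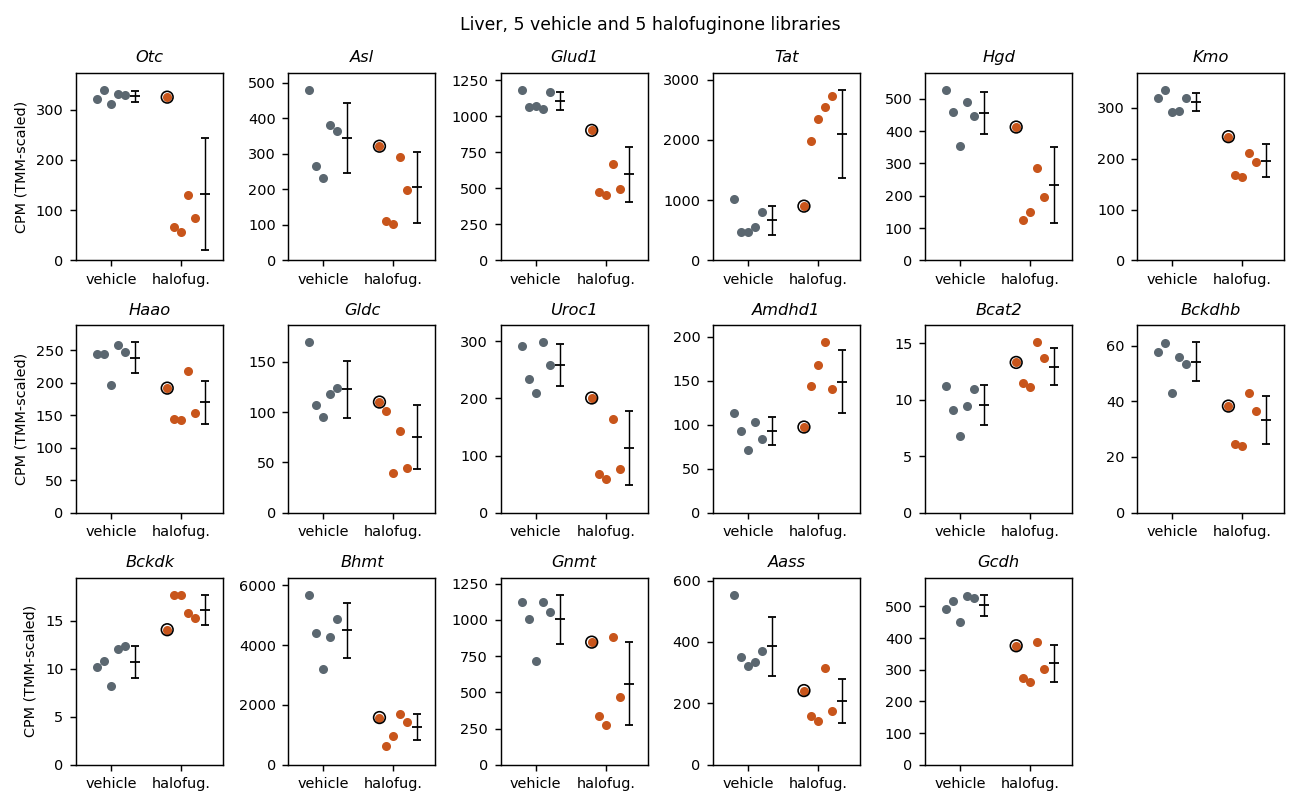
CPM in each of the 5 vehicle (grey) and 5 halofuginone (orange) livers for the 17 members called with or without halofuginone liver 1, which is circled; bars give the mean and SD and every axis starts at 0. In the Otc and Tat panels the circled point lies with vehicle, and in the Bhmt and Glud1 panels it lies below all vehicle points.

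Of the 3 members for tryptophan, Tdo2, the entry enzyme of the kynurenine route in liver, was not called, and both later enzymes fell. The log2 fold change of Tdo2 was −0.13 (SE 0.19, adjusted p 0.632). Kmo (ENSMUSG00000039783) stood at 319, 335, 291, 295 and 319 CPM in vehicle livers 1 to 5 and at 244, 168, 165, 212 and 193 CPM in halofuginone livers 1 to 5. The treated livers all lay below the vehicle livers for this kynurenine hydroxylase. Mean Kmo went from 312 ± 18.4 to 196 ± 32.6 CPM (SD over 5 livers each), a 1.59-fold difference. Kmo had a log2 fold change of −0.67 (SE 0.13, adjusted p 0.00788), and without halofuginone liver 1 it was −0.78 (SE 0.11, adjusted p 0.000260). Haao, which opens the ring of hydroxyanthranilate, fell as well. Haao (ENSMUSG00000000673) stood at 244, 244, 197, 258 and 248 CPM in vehicle livers 1 to 5 and at 191, 144, 143, 217 and 154 CPM in halofuginone livers 1 to 5. Here halofuginone liver 4 lay within the vehicle range, and the low end of that range was vehicle liver 3. Mean Haao went from 238 ± 23.8 to 169.9 ± 33.1 CPM (SD over 5 livers each), a 1.40-fold difference. Haao had a log2 fold change of −0.49 (SE 0.14, adjusted p 0.0318), and without halofuginone liver 1 it was −0.55 (SE 0.14, adjusted p 0.00941). The Haao call was lost without any 1 of 7 libraries (vehicle 1, 2, 4 and 5 and halofuginone 2, 3 and 5), with adjusted p from 0.0598 to 0.0847, and Kmo missed the threshold in 1 alternative, the fit of all 16 libraries together (adjusted p 0.102). In the wider list 2 of 8 were called, Ido2 lower and Kyat1 higher. Kyat1, a kynurenine aminotransferase that also cleaves cysteine conjugates, rose from 33.6 ± 2.55 to 120.4 ± 47.0 CPM (SD, n = 5 each), log2 fold change 1.84 (SE 0.29, adjusted p 0.00405), the largest rise on the wider list.

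None of the 4 serine and glycine members was called with all libraries. Gldc, the decarboxylase of the glycine cleavage system, had 94.9 to 169 CPM in vehicle and 38.9 to 110.0 CPM under halofuginone, with a log2 fold change of −0.71 (SE 0.28, adjusted p 0.0878) that became −0.91 (SE 0.28, adjusted p 0.0216) without halofuginone liver 1. Agxt, which converts glyoxylate to glycine in the peroxisome, stood at −0.19 (SE 0.17, adjusted p 0.435). Sds, serine dehydratase, spread widely in both groups (32.6 to 112 CPM in vehicle and 22.4 to 118 CPM under halofuginone), with a log2 fold change of −0.01 (SE 0.42, adjusted p 0.992), and its exons overlap an opposite-strand gene. On the wider list 6 of 9 tested for serine and glycine fell: Agxt2, Amt, Dmgdh, Gcsh, Hao1 and Pipox. Amt and Gcsh are partners of Gldc in the cleavage system. Dmgdh, which demethylates dimethylglycine, the product of the Bhmt reaction, went from 608 ± 45.5 to 260.4 ± 100.2 CPM (SD, n = 5 each), log2 fold change −1.22 (SE 0.24, adjusted p 0.00929). Pipox, which oxidises pipecolate and sarcosine, went from 205 ± 15.7 to 98.7 ± 62.4 CPM, log2 fold change −1.05 (SE 0.34, adjusted p 0.0436), and lost its call without any 1 of 9 libraries, all but halofuginone liver 1 (adjusted p 0.0679 to 0.1002).

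Histidine is broken down in series by Hal, Uroc1 and Amdhd1, and these 3 were called in different directions or not at all. Hal, histidine ammonia-lyase, stood at 0.53 (SE 0.27, adjusted p 0.172) and was not called. Uroc1, the urocanate hydratase that follows, fell. Uroc1 (ENSMUSG00000034456) stood at 291, 235, 209.9, 298 and 258 CPM in vehicle livers 1 to 5 and at 201, 66.9, 58.2, 163 and 76.9 CPM in halofuginone livers 1 to 5. All 5 treated livers were below the vehicle range, halofuginone liver 1 only narrowly so. Mean Uroc1 went from 259 ± 37.4 to 113 ± 64.6 CPM (SD over 5 livers each), a 2.28-fold difference. Uroc1 had a log2 fold change of −1.19 (SE 0.33, adjusted p 0.0262), and without halofuginone liver 1 it was −1.52 (SE 0.28, adjusted p 0.00163). Amdhd1, the next enzyme, rose. Amdhd1 (ENSMUSG00000015890) stood at 113, 93.2, 71.7, 103 and 84.0 CPM in vehicle livers 1 to 5 and at 97.3, 144, 168, 193 and 140.2 CPM in halofuginone livers 1 to 5. Halofuginone liver 1 was within the vehicle range and the other 4 were above it. Mean Amdhd1 went from 93.1 ± 16.2 to 149 ± 35.8 CPM (SD over 5 livers each), a 1.598-fold difference. Amdhd1 had a log2 fold change of 0.68 (SE 0.18, adjusted p 0.0243), and without halofuginone liver 1 it was 0.77 (SE 0.15, adjusted p 0.00173). Leaving out any 1 of 7 libraries ended the Uroc1 call (vehicle 1, 2, 4 and 5 and halofuginone 2, 3 and 5, adjusted p 0.0512 to 0.0650), and any 1 of 5 ended that of Amdhd1 (vehicle 2, 3 and 5 and halofuginone 3 and 4, adjusted p 0.0569 to 0.0598). In the wider list Hnmt, which methylates histamine, was the 1 of 3 called and went from 19.4 ± 2.19 to 5.28 ± 4.38 CPM (SD, n = 5 each), log2 fold change −1.90 (SE 0.39, adjusted p 0.0101).

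The branched-chain members act in 2 steps: Bcat1 and Bcat2 transaminate, and the dehydrogenase complex with its subunits Bckdha and Bckdhb oxidises the keto acids. Bckdk phosphorylates that complex and so switches it off, and Ppm1k is the phosphatase that reverses this. Bckdk rose. Bckdk (ENSMUSG00000030802) stood at 10.1, 10.8, 8.16, 12.1 and 12.3 CPM in vehicle livers 1 to 5 and at 14.1, 17.7, 17.7, 15.8 and 15.3 CPM in halofuginone livers 1 to 5. All 5 treated livers were above the vehicle maximum, the first included. Mean Bckdk went from 10.7 ± 1.68 to 16.1 ± 1.58 CPM (SD over 5 livers each), a 1.51-fold difference. Bckdk had a log2 fold change of 0.59 (SE 0.12, adjusted p 0.0105), and without halofuginone liver 1 it was 0.61 (SE 0.12, adjusted p 0.00188). The subunit Bckdhb fell. Bckdhb (ENSMUSG00000032263) stood at 57.7, 61.0, 42.9, 56.0 and 53.4 CPM in vehicle livers 1 to 5 and at 38.3, 24.7, 23.8, 42.9 and 36.5 CPM in halofuginone livers 1 to 5. Halofuginone liver 4 was at the level of vehicle liver 3 and the other 4 were below the vehicle range. Mean Bckdhb went from 54.2 ± 6.91 to 33.2 ± 8.54 CPM (SD over 5 livers each), a 1.63-fold difference. Bckdhb had a log2 fold change of −0.71 (SE 0.17, adjusted p 0.0179), and without halofuginone liver 1 it was −0.78 (SE 0.18, adjusted p 0.00546). Its partner subunit Bckdha was at 0.05 (SE 0.13, adjusted p 0.780), with an overlapping gene on the opposite strand.

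Bcat2, the mitochondrial transaminase, rose by a small amount from a low level. Bcat2 (ENSMUSG00000030826) stood at 11.2, 9.07, 6.80, 9.48 and 10.9 CPM in vehicle livers 1 to 5 and at 13.3, 11.5, 11.1, 15.1 and 13.7 CPM in halofuginone livers 1 to 5. The ranges overlapped, since halofuginone liver 3 was below vehicle liver 1. Mean Bcat2 went from 9.50 ± 1.77 to 12.9 ± 1.63 CPM (SD over 5 livers each), a 1.36-fold difference. Bcat2 had a log2 fold change of 0.44 (SE 0.14, adjusted p 0.0447), and without halofuginone liver 1 it was 0.41 (SE 0.15, adjusted p 0.0472). The Bcat2 call was lost without any 1 of 8 libraries (all but vehicle liver 1 and halofuginone liver 1), with adjusted p from 0.0544 to 0.110, and an antisense gene overlaps its exons. Bcat1, the cytosolic form, had 0 counts in every liver. Further along the route the wider list was mostly lower: 10 of 16 fell, among them Acad8, Aldh6a1, Auh, Hibadh, Ivd, Mccc2, Mcee, Pcca and Pccb, and 1 rose. The gene that rose was Ppm1k, from 33.2 ± 7.68 to 68.1 ± 13.2 CPM (SD, n = 5 each), log2 fold change 1.04 (SE 0.17, adjusted p 0.00495), so the kinase and the phosphatase of the complex were both higher.

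Among the 6 members for methionine and cysteine, Bhmt was called, and per length of transcript it was also the most abundant of the set in vehicle liver. Bhmt (ENSMUSG00000074768) stood at 5692, 4400.1, 3216, 4272 and 4883 CPM in vehicle livers 1 to 5 and at 1579.7, 637, 974, 1714 and 1415 CPM in halofuginone livers 1 to 5. The highest treated liver held 1714 CPM and the lowest vehicle liver 3216 CPM. Mean Bhmt fell from 4493 ± 905 to 1264 ± 448 CPM (SD over 5 livers each), a 3.55-fold difference. Bhmt had a log2 fold change of −1.83 (SE 0.28, adjusted p 0.00374), and without halofuginone liver 1 it was −1.94 (SE 0.29, adjusted p 0.000490). Bhmt has a close paralog, Bhmt2, and an antisense gene over its exons, so its counts could include reads of these or have lost some to them. Gnmt, which uses S-adenosylmethionine to methylate glycine, had 714 to 1126 CPM in vehicle and 271 to 882 CPM under halofuginone. Its log2 fold change was −0.84 (SE 0.32, adjusted p 0.0744), and −1.06 (SE 0.31, adjusted p 0.0192) without halofuginone liver 1. DESeq2 (25.2% of all genes called) and the fit without halofuginone liver 4 also called it. The liver methionine adenosyltransferase Mat1a stood at 0.08 (SE 0.25, adjusted p 0.846). Ahcy, which splits S-adenosylhomocysteine, stood at −0.26 (SE 0.20, adjusted p 0.337), and neither was called. Cth, which makes cysteine from cystathionine, stood at −0.50 (SE 0.29, adjusted p 0.222), below every vehicle liver in 4 of 5 treated livers, and was called without halofuginone liver 4, of the libraries left out in turn. Cbs, the enzyme before it, stood at 0.04. In the wider list 3 of 10 were lower (Bhmt2, Ethe1 and Mat2a), and Ethe1, a mitochondrial persulfide dioxygenase, went from 16.2 ± 1.96 to 7.81 ± 3.40 CPM (SD, n = 5 each), log2 fold change −1.06 (SE 0.25, adjusted p 0.0154).

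Both lysine members fell. Aass, the bifunctional enzyme that opens the saccharopine route, came first. Aass (ENSMUSG00000029695) stood at 554, 351, 322, 333 and 369 CPM in vehicle livers 1 to 5 and at 242, 159, 143, 315 and 176 CPM in halofuginone livers 1 to 5. All treated livers were below all vehicle livers, with halofuginone liver 4 close to the lowest of them and vehicle liver 1 well above the rest. Mean Aass went from 386 ± 95.7 to 207 ± 70.9 CPM (SD over 5 livers each), a 1.86-fold difference. Aass had a log2 fold change of −0.90 (SE 0.23, adjusted p 0.0222), and without halofuginone liver 1 it was −0.98 (SE 0.25, adjusted p 0.00938). The call was lost without halofuginone liver 3 or 5 (adjusted p 0.0577 to 0.0587). Gcdh, the glutaryl-CoA dehydrogenase later on the same route, was tighter within groups. Gcdh (ENSMUSG00000003809) stood at 491, 518, 449, 532 and 525 CPM in vehicle livers 1 to 5 and at 376, 273, 259.8, 386 and 303 CPM in halofuginone livers 1 to 5. Again no treated liver reached the vehicle range. Mean Gcdh went from 503 ± 33.7 to 319.6 ± 58.2 CPM (SD over 5 livers each), a 1.57-fold difference. Gcdh had a log2 fold change of −0.65 (SE 0.14, adjusted p 0.0111), and without halofuginone liver 1 it was −0.74 (SE 0.13, adjusted p 0.00125). Of 4 further lysine genes, Aldh7a1 and Dhtkd1 were lower and Phykpl was higher. Aldh7a1, which oxidises the semialdehyde that Aass produces, went from 468 ± 32.0 to 205 ± 90.2 CPM (SD, n = 5 each), log2 fold change −1.19 (SE 0.25, adjusted p 0.0105).

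**Figure D4:**
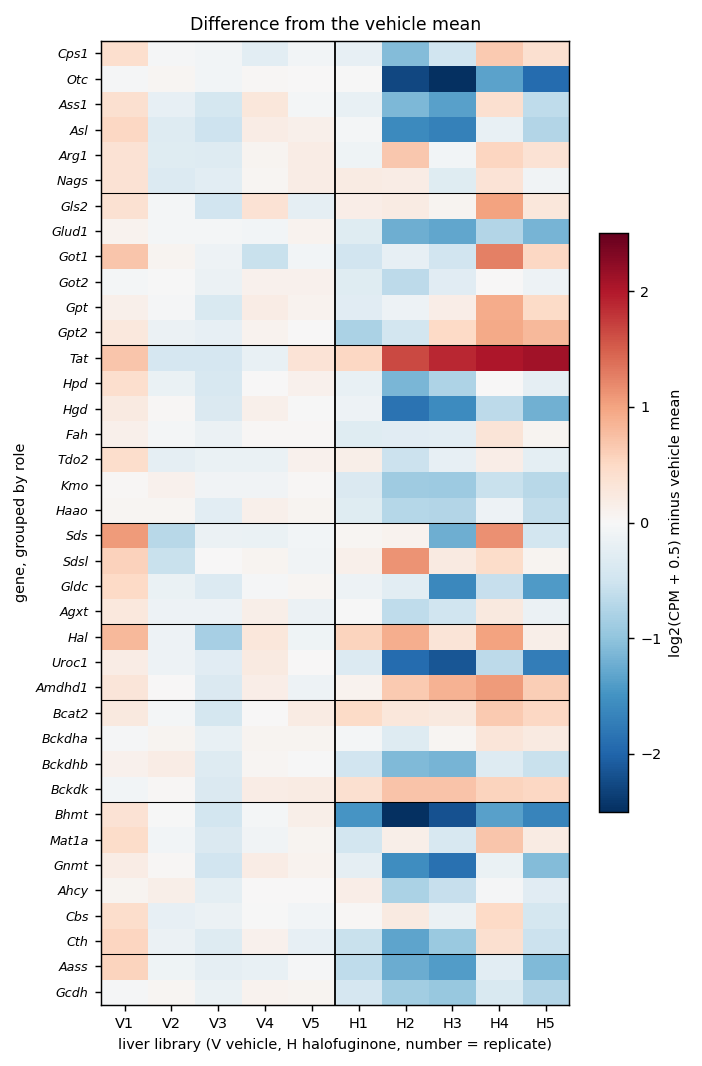
Difference of log2(CPM + 0.5) from the vehicle mean for the 38 members tested (rows, grouped by role) in each liver library (columns). Halofuginone livers 2, 3 and 5 are the bluest columns for Otc, Uroc1, Hgd and Bhmt, halofuginone liver 1 is pale in most rows but blue for Bhmt, and liver 4 is red in many rows that are pale or blue in livers 2 and 3.

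Treated livers were not alike across the set. On the component over the 38 members halofuginone livers 2 and 3 were farthest from vehicle (4.22 and 4.46), liver 5 was next (2.63), and livers 4 and 1 were nearest (0.34 and −0.61). Of the 14 called members halofuginone liver 1 was within the vehicle range for Otc, Tat, Hgd and Amdhd1 and outside it for the other 10. The 21 members called neither with nor without that library had log2 fold changes from −0.50 to 0.53, with adjusted p from 0.172 to 0.992. Missing the threshold does not show that these genes were equal in both groups.

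Regulators of amino acid breakdown (transcription factors, a coactivator, the glucagon receptor and a deacylase) were measured in the same libraries. They too were chosen with earlier results of these data known. Of these regulators 3 of 9 were called, all lower, beside 23.2% of all genes called and 10.5% lower. Hnf4a, a nuclear receptor that maintains hepatocyte gene expression, went from 895 ± 141 to 546 ± 143 CPM (SD, n = 5 each), log2 fold change −0.71 (SE 0.20, adjusted p 0.0269). Ppargc1a, a coactivator of fasting metabolism, went from 5.35 ± 0.976 to 2.85 ± 1.65 CPM (SD, n = 5 each), log2 fold change −0.92 (SE 0.31, adjusted p 0.0492), and Cebpb, a leucine zipper factor, went from 67.2 ± 8.94 to 53.6 ± 3.44 CPM (SD, n = 5 each), log2 fold change −0.32 (SE 0.10, adjusted p 0.0430). The Hnf4a call was lost without vehicle liver 1, 2 or 3 or halofuginone liver 3 or 5 (adjusted p 0.0533 to 0.0689). That of Ppargc1a was lost without any 1 library but halofuginone liver 1 (adjusted p 0.0634 to 0.115), and with no filter. That of Cebpb was lost without vehicle liver 1, 2 or 3 or halofuginone liver 2, 3, 4 or 5 (adjusted p 0.0568 to 0.104), and with library size alone, limma or no filter. In 1 fit of all groups (14.8% of all genes called) and with replicate number as a block all 3 calls were lost. The log2 fold changes of Klf15 (0.16), the glucagon receptor Gcgr (−0.11), the glucocorticoid receptor Nr3c1 (−0.21), Cebpa (−0.30), Foxo1 (−0.24) and the deacylase Sirt5 (−0.25) did not pass the test with all libraries. Without halofuginone liver 1 Nr3c1, Cebpa and Foxo1 were called lower as well, at −0.31, −0.48 and −0.35, in a fit that called 42.8% of all genes and 21.6% lower.

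Levels can be compared between genes only per length, and the authors' FPKM values (fragments per unit of gene length and library size) give that order. In vehicle liver Bhmt (1712 ± 357 FPKM, SD, n = 5) and Mat1a (1707 ± 372 FPKM) led, and their means differed by less than the SD of each. Hpd (1402 ± 317 FPKM) came next, then Ass1 (992 ± 261 FPKM), Ahcy (973 ± 102 FPKM) and Gnmt (922 ± 174 FPKM), whose spreads overlapped. Of the urea cycle, Arg1 at 624 ± 138 and Cps1 at 518 ± 97.0 FPKM came after Ass1. Under halofuginone Bhmt was at 528 ± 162 FPKM and Tat had gone from 266 ± 97.8 to 948 ± 337 FPKM. At the low end of the order were Bckdk (5.04 ± 0.719 FPKM), Bcat2 (4.86 ± 0.957 FPKM) and Sdsl (4.43 ± 1.54 FPKM), with Bcat1 at 0.

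In vehicle fat the order was another one, although the tables of liver and fat were normalised separately. Glud1 (104 ± 5.06 FPKM, SD, n = 3), Fah (73.9 ± 28.6 FPKM), Bckdha (72.4 ± 28.2 FPKM) and Bcat2 (51.4 ± 7.48 FPKM) led. Otc and Sds were at 0 counts in vehicle fat, and 14 of the 39 members did not pass the filter there. The members whose mean FPKM was higher in vehicle fat than in vehicle liver were Bcat1 (23.0 ± 7.01 FPKM), Bcat2, Bckdk (27.9 ± 7.46 FPKM) and Sdsl (8.82 ± 3.60 FPKM), that is, both branched-chain transaminases and the kinase among them.

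**Figure D5:**
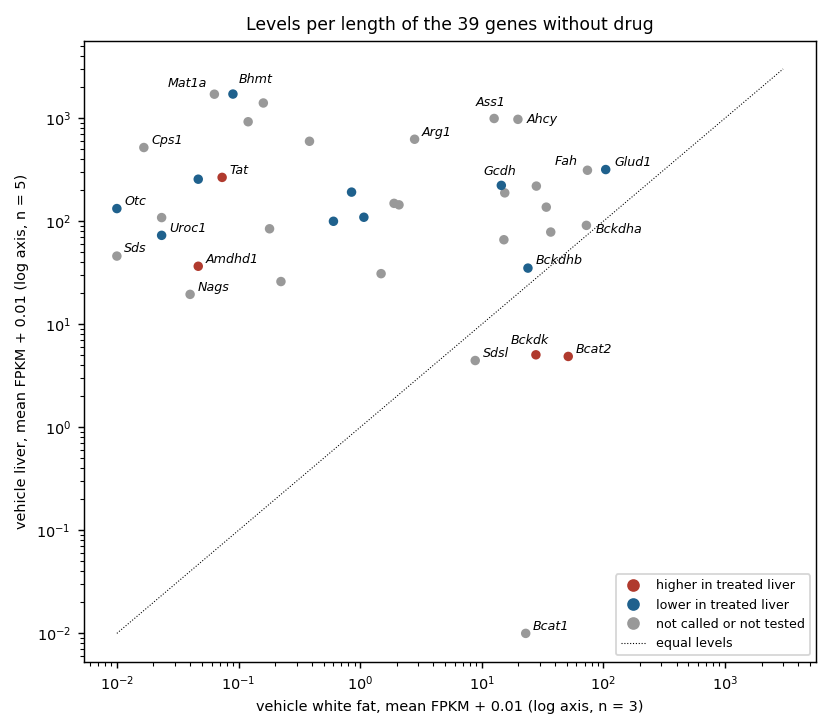
Mean FPKM of the 39 members in vehicle liver (vertical, n = 5) against vehicle white fat (horizontal, n = 3), both axes logarithmic, coloured by the call in treated liver; the dotted line marks equal levels. Sdsl, Bckdk, Bcat2 and Bcat1 lie below the line, and most other members lie far above it.

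In white fat 0 of the 25 members tested were called by edgeR, as were 0 of all 14030 genes (0%). An unadjusted p under 0.05 was found for 4 members (Got1, Ass1, Bcat1 and Gpt2) and for 1881 of all genes. DESeq2 called 1 member, Got1, beside 4.71% of all genes, and limma on the FPKM values called 0. Got1, the cytosolic aspartate aminotransferase, had 30.3, 31.2 and 32.7 CPM in vehicle fat 1 to 3 and 59.6, 89.9 and 44.7 CPM in halofuginone fat 1 to 3. Every treated sample was above every vehicle sample, with a log2 fold change of 1.04 (SE 0.26, adjusted p 0.208, edgeR), and 1.05 with DESeq2 (adjusted p 0.0141). Bckdhb was the other member without overlap (2 of 25, 8.0%, with 20.6% of all genes), and it was higher, the opposite side from liver. It had 39.6, 42.9 and 24.5 CPM in vehicle fat 1 to 3 and 53.7, 49.4 and 45.9 CPM in halofuginone fat 1 to 3, a log2 fold change of 0.48 (SE 0.23, adjusted p 0.422, edgeR).

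Bcat1, with 0 counts in liver, had 64.6, 58.2 and 34.1 CPM in vehicle fat 1 to 3 and 39.4, 17.6 and 17.3 CPM in halofuginone fat 1 to 3, and the groups overlapped at 1 sample, with a log2 fold change of −1.08 (SE 0.40, adjusted p 0.325, edgeR). Gpt2 stood at −0.85 (SE 0.32, adjusted p 0.330, edgeR) and Ass1 at −0.87 (SE 0.30, adjusted p 0.302, edgeR). Bckdk had 56.1, 68.4 and 45.3 CPM in vehicle fat 1 to 3 and 42.9, 42.8 and 52.9 CPM in halofuginone fat 1 to 3, a log2 fold change of −0.29 (SE 0.20, adjusted p 0.571, edgeR), and the ranges overlapped. The 25 members had log2 fold changes from −1.08 to 1.04 with a median of −0.07 (11 positive, 14 negative), beside 0.01 over all genes. Of the wider list 0 of 56 were called by edgeR and 1 by DESeq2. In these samples macrophage markers summed to 1417 to 2189 CPM in vehicle and 667 to 851 CPM under halofuginone. Skeletal muscle markers, mostly Acta1, summed to 88.7 to 172 CPM in vehicle and 51.1 to 59.5 CPM under halofuginone. Markers of epididymis and testis summed to 0.540 to 68.1 CPM in vehicle and 2.31 to 21.1 CPM under halofuginone. Whether macrophage content or carry-over of other tissue took part in the values in fat was not tested. Hepatocyte markers in fat were low apart from Tf: Alb averaged 1.62 and 3.43 CPM in vehicle and treated fat, and Fgb and Ambp were at or under the floor in every fat sample.

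A joint fit of all 16 libraries took the drug effect in fat minus that in liver. It held all 39 members and called 0 of them, beside 0.949% of all 14853 genes. However, 24 of the 39 passed the filter on low counts in both tissues, and the others rest on few or no counts in 1 of them. Over genes that passed in both, a restriction added after seeing the data, 0 of 24 members were called beside 1.12% of 11782 genes. The unadjusted p was under 0.05 for 7 of the 24 (Glud1, Gpt, Gpt2, Sdsl, Bckdhb, Bckdk and Cth). The share of the 11782 genes at that unadjusted threshold was not taken, so no excess among the members can be read from it. In the whole fit the unadjusted p was under 0.05 for 8 members and for 2336 of all genes. DESeq2 called 3 members (Tat, Bckdk and Bckdhb), beside 4.84% of all genes. In fat Tat rests on at most 6 counts per library. The smallest adjusted p-values by edgeR were those of the branched-chain pair: Bckdk at −0.91 (SE 0.24, adjusted p 0.0757) and Bckdhb at 1.16 (SE 0.30, adjusted p 0.0765). Without halofuginone liver 1 these passed, Bckdk at −0.96 (SE 0.23, adjusted p 0.0245) and Bckdhb at 1.21 (SE 0.31, adjusted p 0.0311), together with Glud1 at 0.99 (SE 0.20, adjusted p 0.00962), beside 7.07% of all genes. These were 3 of the 24 that passed the filter in both tissues (12.5%), beside 8.37% of such genes. Halofuginone liver 1 was picked out by its values in these same genes, so the calls without it are no separate support. Leaving out any other single library gave 0 called members.

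On the wider list 3 of 67 genes in the joint fit differed between the tissues (0.949% of all genes). They were among 54 that passed the filter in both (5.56%, with 1.12% of such genes). Oat fell in liver and stood at 0.09 (SE 0.14, adjusted p 0.822, edgeR) in fat, a difference of 1.61 (SE 0.29, adjusted p 0.0207). Mat2a, the methionine adenosyltransferase of tissues other than liver, went in liver from 117 ± 6.03 to 85.4 ± 15.9 CPM (SD, n = 5 each), log2 fold change −0.45 (SE 0.12, adjusted p 0.0253), and had 138 ± 12.1 and 258 ± 30.8 CPM in vehicle and treated fat (SD, n = 3 each), log2 fold change 0.90 (SE 0.16, adjusted p 0.142, edgeR), a difference of 1.33 (SE 0.20, adjusted p 0.00722). The liver call of Mat2a was lost without vehicle liver 1, 4 or 5 or halofuginone liver 3, 4 or 5 (adjusted p 0.0522 to 0.0621), and with library size alone or limma. Kyat1 rose in liver and stood at −0.53 (SE 0.39, adjusted p 0.612, edgeR) in fat, a difference of −2.40 (SE 0.52, adjusted p 0.0423). The count of 3 was 9 without halofuginone liver 1 (7.07% of all genes called) and 6 with DESeq2 (4.84% of all genes called).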

How the data were processed

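Polyadenylated RNA of 10 livers and 6 white fat samples was sequenced, per the labels' protocols. The authors deposited 1 table per tissue with counts and FPKM (fragments per unit of gene length and library size) for 22322 genes, per the file headers. The submitters' processing notes name build mm39 and fastp 0.18.0, Bowtie2 2.2.8, HISAT2, StringTie 1.3.1 and RSEM, with no role or order. Strand is not given in the sources used here, so genes with antisense overlap are uncertain. A reference table paired 22267 identifiers with symbols. Members and lists were chosen with earlier results of these data known, which also holds for the wider list, the regulators and the marker lists.

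Deposited counts were fitted within each tissue by edgeR 4.0.16 under R 4.3.3 (low-count filter filterByExpr, TMM, glmQLFit, glmQLFTest, two-sided, Benjamini-Hochberg over all genes tested). The threshold for a call was an adjusted p under 0.05. The difference between tissues came from 1 fit of all 16 libraries taken as independent. SE is the absolute log2 fold change over the square root of F. The procedure was tested on simulated data. These were drawn from edgeR's own fitted model, with no library set apart as halofuginone liver 1 was, and no result here rests on them. Libraries of a group differed by more than sampling noise (smallest chi-square per degree of freedom 29.7 in liver and 50.5 in fat), and each was counted as 1 replicate. That measure cannot show that each library is a separate animal, which the labels do not state.

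Genes described in full were members called in any of these fits, with or without halofuginone liver 1. Of other members, the 2 per role with the highest vehicle FPKM got values, and further ones were named after their values had been seen. From the wider list, called genes with an absolute log2 fold change above 1 got values, the other called ones were only named, and 1 gene is not reported here. Alternatives were DESeq2 1.42.0, its size factors, library size alone, no filter on low counts, limma 3.58.1 on log2(FPKM + 1) and log2(FPKM + 0.1) of genes with a mean of at least 1 FPKM, a replicate block, 1 fit of all groups and leaving out each library. Alternatives for the wider list, the AGGTCA search and the restriction of the tissue difference to genes that passed the filter in both tissues were added after seeing the data. The strand of the RefSeq windows was checked against GENCODE M21 transcripts, and 29 of 30 windows matched. No coordinates are given for genes beyond the RefSeq windows on GRCm38.p6, since no mm39 genome was used here.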

Additional observations from a re-analysis of the deposited data

Results flagged for a closer look

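In the 17 members called with or without halofuginone liver 1, each group of 5 livers was examined for a library whose gap to its nearest neighbour exceeded 0.71 of the group's range. This singled out 4 of 34 groups, where chance gives about 1 in 20, or 1.7, for independent groups. These groups share the same livers and the genes were picked by their calls, so no excess can be read from the 4. Otc was at 325 CPM in halofuginone liver 1, with the next treated liver at 129 CPM, a gap of 0.728 of the range. Haao was at 197 CPM in vehicle liver 3, next 244 CPM, a gap of 0.779. Aass was at 554 CPM in vehicle liver 1, next 369 CPM, a gap of 0.797. Gnmt was at 714 CPM in vehicle liver 3, next 1008 CPM, a gap of 0.713.

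The effect of the drug differed between fat and liver, by the test of that difference in the joint edgeR fit, for 3 genes of the wider list. The fat effect minus the liver effect was 1.61 on the log2 scale for Oat, −2.40 for Kyat1 and 1.33 for Mat2a.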

How the results depend on the processing

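The count of 14 called members in liver was 9 in 1 fit of all groups, and ran from 7 (without halofuginone liver 3) to 17 (without halofuginone liver 1) when single libraries were left out. It was between 13 and 15 with DESeq2 (25.2% of all genes called), other scalings, limma and no filter. Apart from DESeq2, shares of all genes were not taken for these fits. In fat the count of 0 was 1 with DESeq2. For the difference between tissues the count of 0 was 3 with DESeq2, and 0 to 3 when single libraries were left out. The cause of these shifts was not tested. Of the 14 calls 6 held in all 18 alternatives and 8 were lost in some, and none of the 14 changed direction.

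With replicate number as a block the counts were 16 in liver (3 higher, 13 lower, 13 of them among the 14), 0 in fat and 0 for the difference between tissues. The share of all genes called in the block fit was not taken, so the 16 cannot be set against it. Amdhd1 lost its call and Asl, Gldc and Gnmt gained one. The regulators Hnf4a, Ppargc1a and Cebpb also lost theirs. The block is no pairing by design: deviations of same-numbered libraries correlated at −0.156 to 0.057 in liver (0 of 5 pairs over 0.1) and −0.570 to 0.111 in fat (1 of 3), and 1 of 5 vehicle livers and 0 of 3 vehicle fat samples correlated best with their own number.

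The direction of some uncalled genes near 0 depended on the setting. Scaling by library size alone gave log2 fold changes of 0.099 for Cps1, 0.071 for Fah, 0.013 for Tdo2, 0.113 for Sds and 0.040 for Gcgr. The limma fits with a pseudocount of 0.1 and 1 gave 0.0081 and 0.0083 for Cps1, 0.0597 and 0.0595 for Fah, 0.0654 and 0.0651 for Sds, and 0.0278 and 0.0276 for Gcgr. Leaving out single libraries gave −0.28 to 0.13 for Cps1, −0.034 to 0.16 for Nags, −0.18 to 0.45 for Got1, −0.46 to 0.37 for Sds, −0.030 to 0.13 for Bckdha, −0.14 to 0.20 for Mat1a and −0.10 to 0.17 for Cbs. Depth limits Tat in fat, at 6 counts or fewer per library.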
